A study of Mus musculus with 11 samples.

Results

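The genes described here encode proteins of the mitochondrial ribosome: the mouse genes whose symbol is Mrpl or Mrps followed directly by a digit. The rule found 73 such genes among 21143 genes with a probe set of 1 symbol, and it used names only, no measured level. Of the 73, 45 carry Mrpl symbols, for the large subunit, and 28 carry Mrps symbols, for the small subunit. They were read by 81 probe sets, and for the 8 genes with several the brightest one by its mean across all 11 arrays was used. Another 4 probe sets that carry such a symbol together with another gene's were not counted as members, so Mrps6 and Mrpl53 are not described here.

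Late 2-cell mouse embryos were collected in 11 pools of 40, each read on its own Affymetrix whole-transcript array, to ask what Polycomb function in the growing egg does for the early embryo. Control (matRing1-/Rnf2+) embryos developed from eggs that lacked Ring1 and kept Rnf2, while the eggs behind mutant (matRing1/Rnf2 double mutant) embryos lacked both. Ring1 and Rnf2 are the alternative ubiquitin ligase subunits of Polycomb repressive complex 1, so both genotypes lacked maternal Ring1 and they differed in maternal Rnf2. Wild-type sperm was used for every in vitro fertilization, which left a paternal copy of each gene in every embryo. Untreated pools numbered 3 for control and 3 for mutant. Pools cultured with the RNA polymerase II inhibitor α-amanitin numbered 3 for control and 2 for mutant, and the inhibitor was present at 24 µg/ml from 6 h after fertilization to harvest at 35 h. The animals were of mixed 129/Sv and C57BL/6J background, the superovulated egg donors were 5 to 10 weeks old, the sperm donors were 10 to 16 weeks old, and embryos of several mice were pooled. How the maternal alleles were deleted, and when untreated embryos were harvested, is not given in any source used here. The RNA was amplified across the transcriptome before labelling. Replicates are biological replicates per the labels, and their number limits the precision. In a pool, fewer embryos holding an RNA and less of that RNA in each embryo cannot be told apart.

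Mitochondria keep their own ribosome, which translates the few proteins encoded in mitochondrial DNA, all of them parts of the respiratory chain complexes and ATP synthase. Its ribosomal RNAs are mitochondrial, while all of its proteins are encoded in the nucleus, made in the cytosol and imported. The fertilized egg inherits its mitochondria and much messenger RNA from the oocyte, and in the mouse the embryo's own genome becomes broadly active at the 2-cell stage. Some members descend from bacterial ribosomal proteins and others are found only in mitochondria. The symbols do not always match the place of the protein: in the mammalian mitochondrial ribosome Mrps30 and Mrps18a sit in the large subunit, and Mrps36 is known as a part of the 2-oxoglutarate dehydrogenase complex. The symbols were nevertheless followed below.

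Values are the deposited log2 levels of a probe set, which count only against the rest of the RNA hybridized with it, and a level of 1 gene is not set against that of another. A ± follows a log2 difference and gives its standard error from limma, and a gene was called changed at an adjusted p below 0.05 over all 34760 probe sets. Rnf2 read 6.59 to 6.84 in the untreated control pools and 5.00 to 5.17 in the untreated mutant pools, and it was lower in mutants without the inhibitor (-1.63 ± 0.11) and with it (-1.86 ± 0.13, limma, adjusted p = 7.97e-06 and 2.99e-05). Of 12 oocyte and 2-cell markers 8 were measured, and 7 or 8 of them lay above a log2 level of 6 in every array. Their summed log2 level was 58.1 to 59.4 for untreated control and 61.8 to 63.8 for untreated mutant pools. With the inhibitor it was 59.8 to 61.7 for control and 60.4 to 63.1 for mutant pools. In untreated mutants 5 were called higher and 2 lower, against 8.58% and 16.5% of all genes. In controls 3 were higher in untreated than treated pools and 5 lower, against 19.3% and 14.1% of all genes. The largest differences there were those of Tcstv3 (1.56 ± 0.23) and Bmp15 (-1.99 ± 0.12). Of 12 cumulus and granulosa markers, all measured, 0 or 1 lay above 6 in any array, with sums of 53.7 to 55.1, 54.0 to 55.3, 52.6 to 53.7 and 55.0 to 56.1 in the same order of groups. Among them Ptgs2 (1.30 ± 0.15) and Cyp19a1 (0.44 ± 0.12) were higher and Amhr2 lower (-1.68 ± 0.12) in untreated mutants. None of 8 sperm markers lay above 6, with sums of 35.7 to 35.9, 35.0 to 36.7, 35.6 to 36.5 and 36.1 to 36.4. Of these Prm2 was higher (0.61 ± 0.14) and Ldhc lower (-0.62 ± 0.10) in untreated mutants, and Ldhc was higher (0.63 ± 0.10) and Smcp lower (-0.26) in untreated than treated controls. No value in the table was 0, and the part of these markers in the results below was not tested. Treated mutant replicate 2 held more probe sets above 6 (14.2%) than replicate 1 (11.0%), so results on treated mutants are given without it where it matters. That leaves 1 treated mutant array, which is then assumed to vary like the arrays of the other groups.

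The promoters of 5 members are printed first because the results return to these genes. Mrpl34 had the largest fall in untreated mutants, Mrps33 was higher in mutants in both culture conditions, and Mrps18b holds copies of 2 of the 3 motifs searched. Mrps11 and Mrpl46 are neighbours whose promoter windows overlap. Sequences are from RefSeq on GRCm38.p6, 250 bases before to 50 after the start, 5′ to 3′ on the gene's strand. They lie at chr8:71464676-71464975 (plus strand), chr6:39810887-39811186 (minus), chr17:35916391-35916690 (minus), chr7:78782881-78783180 (plus) and chr7:78783040-78783339 (minus). Capitals mark the letters CCGGAAG of ETS factors such as GABP, GCGCATGC of NRF1 and AAGATGGCG of YY1 on either strand, which read CTTCCGG, GCATGCGC and CGCCATCTT when they lie on the other strand.
Mrpl34: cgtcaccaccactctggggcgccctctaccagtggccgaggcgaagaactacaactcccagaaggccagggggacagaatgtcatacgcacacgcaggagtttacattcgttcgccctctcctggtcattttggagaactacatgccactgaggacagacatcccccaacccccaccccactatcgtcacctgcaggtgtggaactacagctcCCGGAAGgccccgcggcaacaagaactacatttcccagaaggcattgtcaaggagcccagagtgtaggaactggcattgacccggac
Mrps33: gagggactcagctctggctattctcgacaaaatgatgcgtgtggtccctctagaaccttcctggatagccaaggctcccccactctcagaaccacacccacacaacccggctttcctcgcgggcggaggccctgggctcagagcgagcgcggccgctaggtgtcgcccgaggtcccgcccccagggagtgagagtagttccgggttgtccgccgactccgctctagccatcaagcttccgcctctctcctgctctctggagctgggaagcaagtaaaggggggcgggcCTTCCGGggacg
Mrps18b: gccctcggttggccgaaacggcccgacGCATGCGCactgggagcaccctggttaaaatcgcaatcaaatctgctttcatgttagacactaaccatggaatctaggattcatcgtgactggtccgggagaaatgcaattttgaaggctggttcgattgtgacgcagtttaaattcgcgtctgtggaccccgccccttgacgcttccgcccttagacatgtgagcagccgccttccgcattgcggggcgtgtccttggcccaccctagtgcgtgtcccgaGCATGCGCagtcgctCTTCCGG
Mrps11: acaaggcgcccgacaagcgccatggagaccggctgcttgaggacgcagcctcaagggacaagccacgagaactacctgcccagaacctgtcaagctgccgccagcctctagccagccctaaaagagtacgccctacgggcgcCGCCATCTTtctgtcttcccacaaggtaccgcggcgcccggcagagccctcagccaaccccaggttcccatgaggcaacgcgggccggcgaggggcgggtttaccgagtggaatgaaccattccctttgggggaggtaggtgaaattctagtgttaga
Mrpl46: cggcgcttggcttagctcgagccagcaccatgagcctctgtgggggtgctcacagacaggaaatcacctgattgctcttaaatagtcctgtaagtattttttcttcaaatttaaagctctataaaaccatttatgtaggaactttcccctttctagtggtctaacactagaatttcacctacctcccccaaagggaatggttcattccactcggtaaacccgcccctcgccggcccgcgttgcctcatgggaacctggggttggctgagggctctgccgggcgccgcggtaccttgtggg

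The first question was which of these RNAs were more abundant when transcription was allowed. In control embryos 50 of the 73 genes were higher in untreated than in α-amanitin pools and 1 was lower (limma). That is 68.5% and 1.37% of the members, against 19.3% and 14.1% of all genes. Dim probe sets are seldom called, and nearly all members lie among the brighter ones. In a fit of the brighter 50% of probe sets the shares were 33.3% and 24.2% of 12143 genes, beside 49 and 2 of 72 members. The large subunit gave 35 of 45 higher with a median difference of 0.74, the small subunit 15 of 28 with a median of 0.40, and the median over all genes was -0.04. In 24 of the 73 the untreated pools were called higher by at least 2-fold, on the scale of these arrays, against 1874 of all 21143 genes. The 22 members without a call in this comparison are not thereby shown to be equal in both. After quantile normalization 40 members were called higher and 10 lower, the share of higher calls over all genes went from 57.8% to 43.2%, and the medians were 0.47 and 0.22, still above 0.

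**Figure D1:**
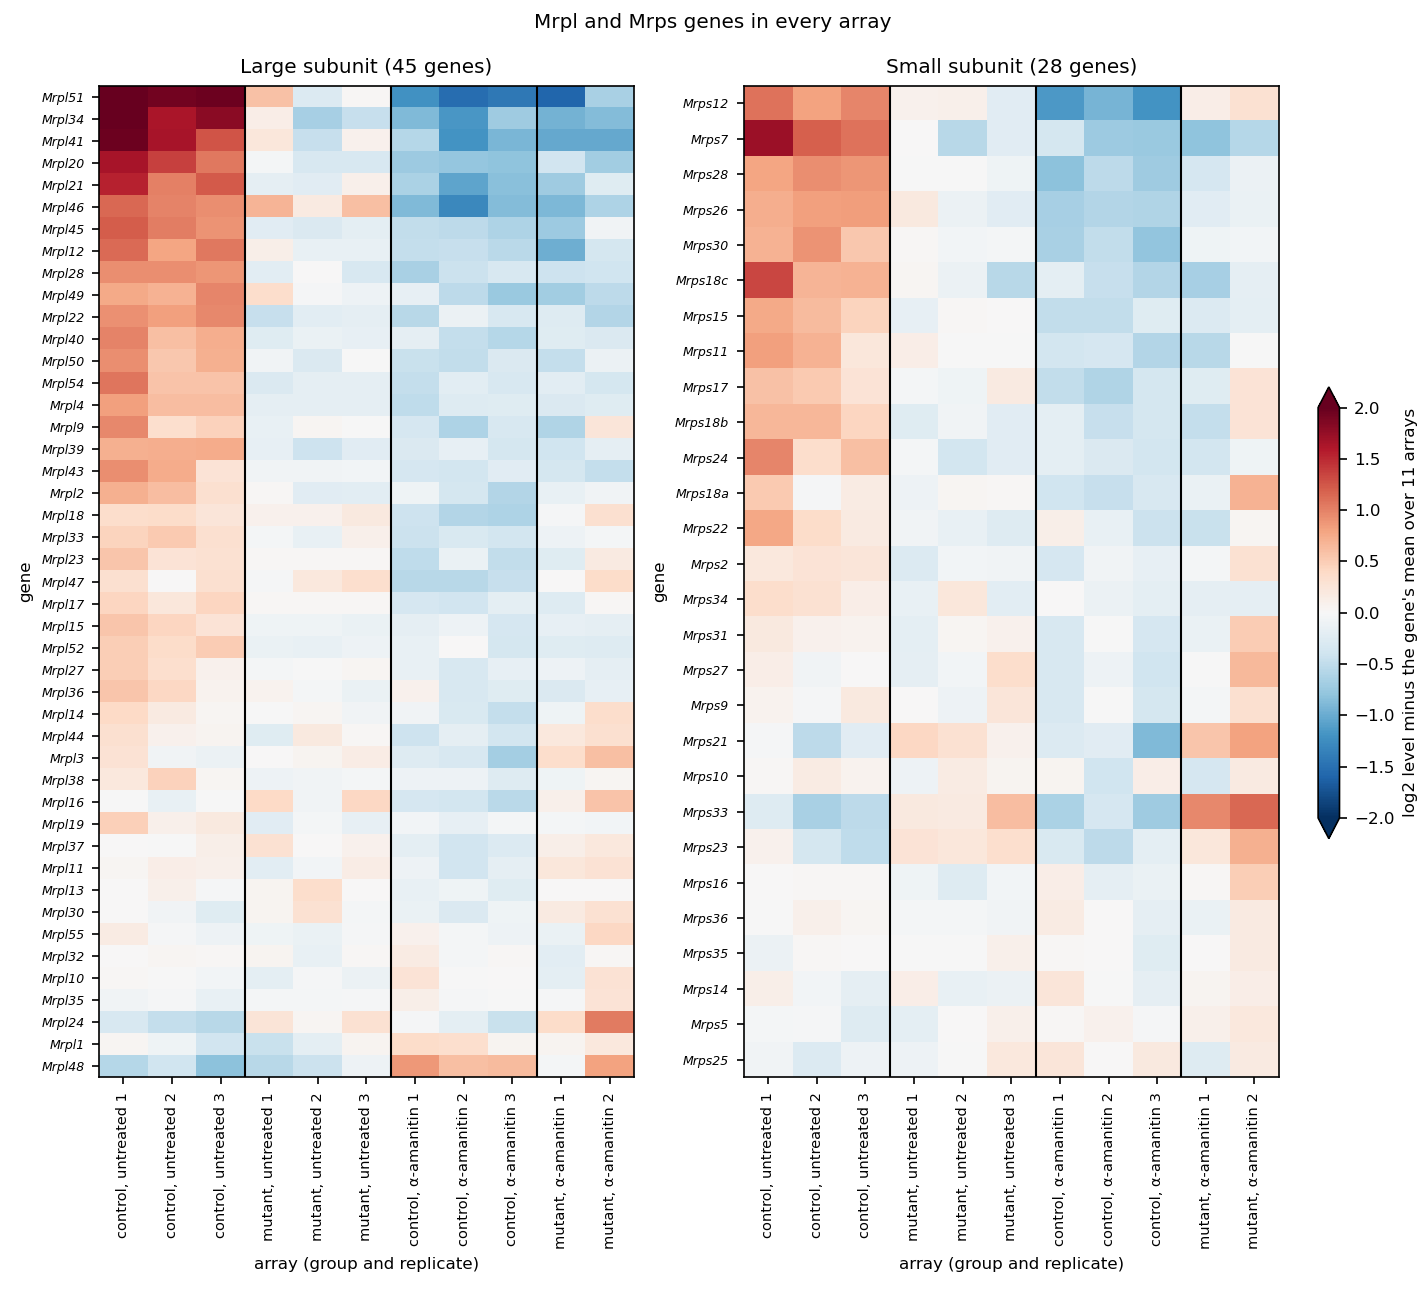
Log2 level of every Mrpl (left) and Mrps (right) gene in each of the 11 arrays, less that gene's mean over the arrays, ordered by the untreated minus α-amanitin difference in control embryos; red is higher and blue lower, and lines part the groups. The untreated control columns are red for most genes at the top, while Mrpl48 at the bottom runs the other way and Mrps33 and Mrpl24 are highest in mutants.

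Among large subunit genes, Mrpl34, a small protein with a bacterial counterpart, read 8.13, 7.65 and 7.83 in untreated control pools and 5.14, 4.86 and 5.31 with the inhibitor. Its untreated mutant pools read 6.15, 5.35 and 5.56, and its treated mutant pools 5.07 and 5.15. The untreated control pools stood alone at the top, 6.81-fold above the treated ones (2.77 ± 0.20, limma, adjusted p = 1.37e-06). Mrpl20, whose bacterial counterpart helps to assemble the large subunit, read 7.0, 6.72 and 6.41 in untreated control pools and 5.31, 5.03 and 5.03 in mutant ones, and with the inhibitor 4.63, 4.57 and 4.54 (control) and 4.97 and 4.65 (mutant). The treated control pools of Mrpl20 lay close together and 4.38-fold below the untreated ones (2.13 ± 0.15). Mrpl21, another protein with a bacterial counterpart, read 8.15, 7.62 and 7.85, then 6.44, 6.39 and 6.72, then 5.98, 5.57 and 5.79, then 5.91 and 6.38 in the same order of groups. Its difference in control embryos was 2.09 ± 0.17. Mrpl41, found only in mitochondria, read 7.44, 7.13 and 6.74 in untreated control pools and 5.70, 5.02 and 5.56 in mutant ones, and with the inhibitor 4.91, 4.29 and 4.57 (control) and 4.46 in each mutant pool. Its untreated control pools were 5.71-fold above the treated ones (2.51 ± 0.22). The 2 probe sets that it shares with Wdr85 were higher as well, but by much less (1.05 and 0.70). Where these probe sets lie in the genome could not be checked, so the size of the Mrpl41 difference is uncertain.

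Mrpl12, which forms the flexible stalk of the large subunit and also binds mitochondrial RNA polymerase, read 6.92, 6.57 and 6.83 in untreated control and 5.31, 5.32 and 5.25 in treated control pools, a difference of 1.48 ± 0.15. Mrpl46, a protein found only in mitochondria, read 7.03, 6.87 and 6.81 without and 5.00, 4.60 and 5.02 with the inhibitor (2.03 ± 0.15). Mrpl33 (0.80 ± 0.09), Mrpl15 (0.63 ± 0.09), Mrpl18 (0.85 ± 0.10) and Mrpl47 (0.74 ± 0.13), all with bacterial counterparts, were higher in untreated pools by less. Mrpl3, which reaches from the surface toward the catalytic centre, gave 0.46 ± 0.14, a call that was lost without untreated control replicate 1 or treated control replicate 3 (adjusted p = 0.109 and 0.115) and after quantile normalization (0.11, adjusted p = 0.541). Mrpl19 gave 0.35 ± 0.10, lost without untreated control replicate 1 or treated control replicate 1 or 2 (adjusted p from 0.0569 to 0.101).

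Mrpl51, found only in mitochondria, was the member with the largest difference, 10.7-fold (3.42 ± 0.25), but it is uncertain which RNA was read. Its brighter probe set read 9.54, 9.26 and 9.29 in untreated control and 6.12, 5.81 and 5.90 in treated control pools. The other probe set, which is listed with a curated RefSeq transcript of Mrpl51, read 5.48, 5.62 and 5.38 against 5.54, 4.85 and 4.83, which overlap (0.42, adjusted p = 0.158). RefSeq lists a pseudogene of Mrpl51, and reads of near-identical copies could not be parted here.

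Mrpl48 went against the rest. This protein, found only in mitochondria, read 7.29, 7.46 and 7.04 in untreated control pools and 8.73, 8.46 and 8.49 with the inhibitor, so the untreated pools were 2.46-fold lower (-1.30 ± 0.21, adjusted p = 0.000533). Its other probe set was also called lower (-1.12, limma, adjusted p = 4.23e-05), with 5.93, 5.86 and 5.91 against 7.03, 6.92 and 7.11. RefSeq lists a pseudogene of Mrpl48 too.

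Among small subunit genes, Mrps12, which lines the decoding site, read 6.89, 6.62 and 6.79 in untreated control and 4.66, 4.88 and 4.62 in treated control pools (2.05 ± 0.12). Mrps7, which binds the ribosomal RNA in the head of the subunit, read 8.18, 7.67 and 7.55 against 6.11, 5.74 and 5.72 (1.94 ± 0.19). The untreated pools of both stood 4.13- and 3.84-fold higher. Mrps28 (1.56 ± 0.10), Mrps26 (1.41 ± 0.11), Mrps30 (1.35 ± 0.11), Mrps15 (1.02 ± 0.11) and Mrps24 (0.93 ± 0.15) were higher in untreated pools as well. Of the 3 paralogs that descend from 1 bacterial protein, Mrps18c gave 1.32 ± 0.21, Mrps18b 0.93 ± 0.17 and Mrps18a 0.62 ± 0.19. The call of Mrps18a was lost without any 1 of 5 control arrays, all but untreated control replicate 2 (adjusted p from 0.0617 to 0.134).

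**Figure D2:**
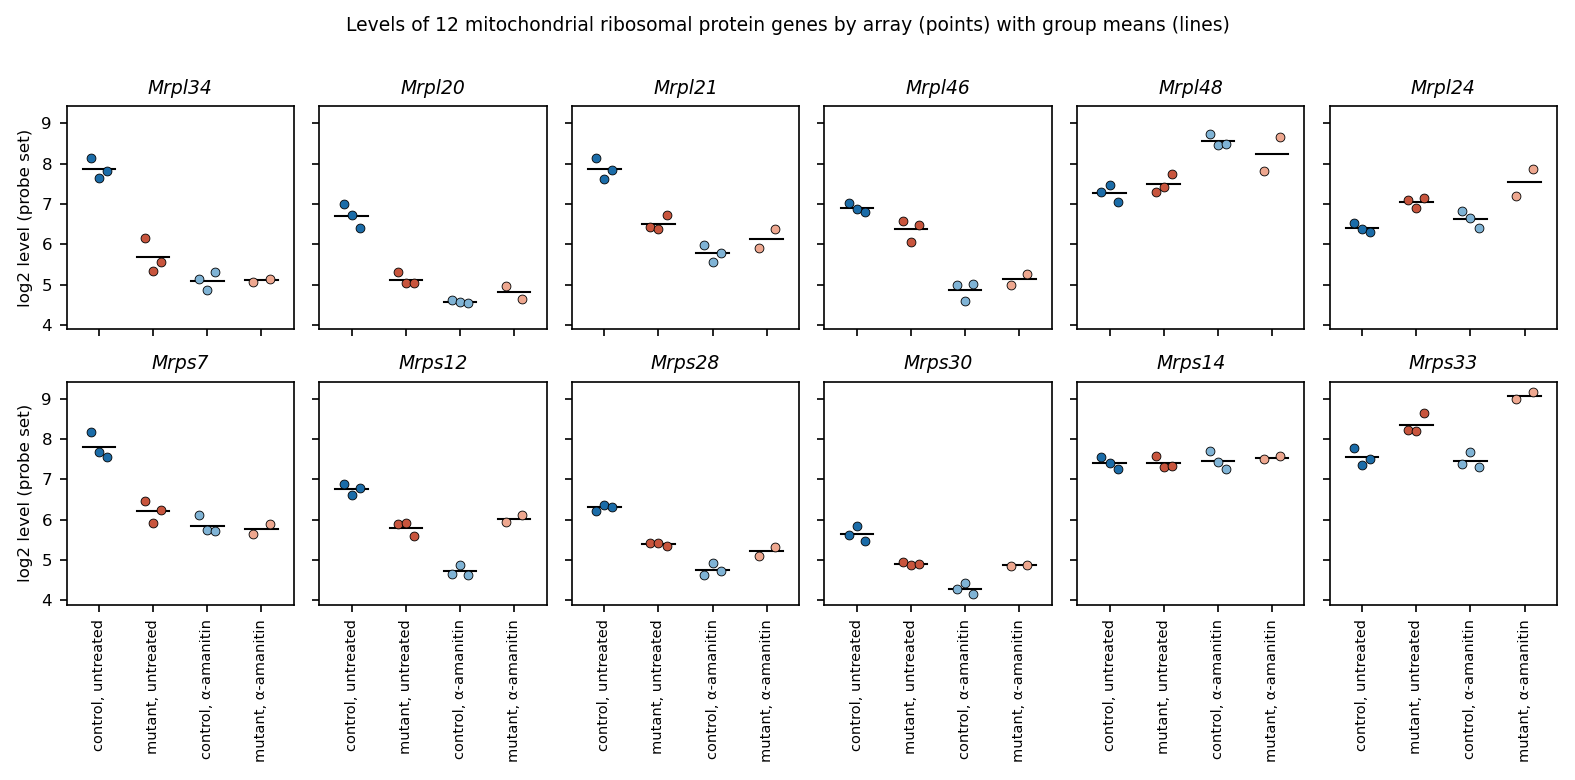
Log2 level of 12 members in each array, 1 point per array, with a line at each group's mean; the 4 groups stand along the horizontal axis and all panels share the vertical axis. In the upper row Mrpl34, Mrpl20 and Mrpl21 are highest in untreated control pools, and in the lower row Mrps12, Mrps28 and Mrps30 are lowest in treated control pools, while the 4 groups of Mrps14 overlap.

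The next comparison asked what the loss of maternal Rnf2 changed in untreated embryos. Of the 73 members 35 were lower in mutant pools and 3 were higher (limma), or 47.9% and 4.11%, against 16.5% and 8.58% of all genes. In the fit of the brighter 50% of probe sets the shares were 29.9% and 15.5% of genes, beside 37 and 4 of 72 members. The large subunit gave 23 lower and 1 higher with a median of -0.40, the small subunit 12 lower and 2 higher with a median of -0.27, and the median of all genes was 0.01. In 11 members the mutant pools were called lower by at least 2-fold, against 1186 of all 21143 genes. This comparison and the treatment comparison in control embryos use the same untreated control arrays, so their values stand side by side and are not independent. After quantile normalization 29 members were lower and 10 higher, the share of higher calls over all genes went from 34.2% to 53.3%, and the medians were -0.26 and -0.10.

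Mrpl34 fell 4.53-fold in mutants (-2.18 ± 0.20, adjusted p = 2.88e-05), with all 3 untreated mutant pools below all 3 control pools and above all 5 treated pools. Mrpl41 (-1.67 ± 0.22), Mrpl20 (-1.59 ± 0.15), Mrpl21 (-1.36 ± 0.17) and Mrpl12 (-1.05 ± 0.15) fell as well. The 2 probe sets that Mrpl41 shares with Wdr85 fell too, by much less (-0.69 and -0.58). Mrpl15 (-0.52 ± 0.09) and Mrpl33 (-0.46 ± 0.09) fell by less. Mrpl46 fell by 0.53 on the log2 scale, a call that was lost without any 1 of the 3 untreated control pools or without untreated mutant replicate 2 (adjusted p from 0.0541 to 0.12) and after quantile normalization (-0.12, adjusted p = 0.691). Mrpl19 gave -0.40 ± 0.10, lost when untreated control replicate 1 or mutant replicate 1 or 3 was left out (adjusted p from 0.0542 to 0.0654). For Mrpl51 the brighter probe set gave -1.92 ± 0.25 and the other -0.05 (adjusted p = 0.908).

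In the small subunit Mrps7 fell 3.01-fold (-1.59 ± 0.19), to 6.47, 5.92 and 6.24 in the mutant pools. Mrps18c (-1.11 ± 0.21), Mrps12 (-0.97 ± 0.12), Mrps28 (-0.91 ± 0.10), Mrps24 (-0.85 ± 0.15) and Mrps26 (-0.85 ± 0.11) fell, and so did Mrps18b (-0.77 ± 0.17), Mrps30 (-0.73 ± 0.11) and Mrps15 (-0.65 ± 0.11). Mrps18a did not pass the test (-0.24 ± 0.19, adjusted p = 0.48), and its untreated mutant pools at 5.64, 5.78 and 5.77 overlapped the control pools at 6.27, 5.73 and 5.91.

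The 3 members that rose were Mrps33 and Mrps23, small subunit proteins found only in mitochondria, and Mrpl24, which binds early in the assembly of the bacterial large subunit. Mrps33 read 7.77, 7.37 and 7.50 in control and 8.22, 8.21 and 8.64 in mutant pools (0.81 ± 0.15, adjusted p = 0.00239). Its other probe set, listed with a curated RefSeq transcript, rose too, from a mean of 4.74 to 5.42 (0.68, limma, adjusted p = 0.0022). The brighter probe set is not listed first with such a transcript, so it is uncertain which RNA it read. Mrpl24 read 6.53, 6.37 and 6.30 against 7.11, 6.89 and 7.16 (0.65 ± 0.17). Mrps23 read 6.78, 6.35 and 6.19 against 6.97, 6.93 and 7.04 (0.54 ± 0.17). In all 3 the groups did not overlap, which was a condition for naming called rises. The calls of Mrpl24 and Mrps23 were lost without untreated control replicate 2 or 3 or untreated mutant replicate 1 or 3, which left a count of 1, and that of Mrps23 also without untreated mutant replicate 2 or treated control replicate 1 (adjusted p from 0.0551 to 0.151 over both genes).

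In mutant embryos the same treatment comparison gave far fewer calls. Only Mrpl46 and the brighter probe set of Mrpl51 were higher in untreated than in α-amanitin pools and Mrps33 was lower (limma), 2.74% and 1.37% of the members, against 2.59% and 1.09% of all genes. In the fit of the brighter 50% of probe sets the shares were 5.67% and 3.43% of genes, beside 5 and 1 of 72 members. The medians were 0.08 in the large and -0.07 in the small subunit, beside -0.03 over all genes. Mrpl46 read 6.57, 6.07 and 6.48 in untreated and 4.99 and 5.27 in treated mutant pools (1.25 ± 0.17, adjusted p = 0.00306), and its call was lost only where the other groups were left out of the fit (adjusted p = 0.0763). Mrpl51 gave 1.23 ± 0.28, lost in 9 of the 11 fits that left out 1 array, all but those without treated mutant replicate 2 or untreated mutant replicate 2 (adjusted p from 0.0505 to 0.15). Mrps33 read 8.99 and 9.17 in treated against 8.22, 8.21 and 8.64 in untreated mutants (-0.72 ± 0.17), lost in 8 of the 11 fits, all but those without treated control replicate 2, untreated control replicate 1 or untreated mutant replicate 3 (adjusted p from 0.0518 to 0.205). Mrpl41 (0.97 ± 0.24, adjusted p = 0.0597) and Mrpl12 (0.60 ± 0.17, adjusted p = 0.0919) did not pass. The treatment comparisons of the 2 genotypes share no array: of the 50 members higher in control embryos 2 (4%) were higher in mutants, and of the 2 higher in mutants both (100%) were higher in controls.

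The test of the difference itself, the interaction, compared the signed untreated minus α-amanitin difference between mutant and control embryos, and it is below 0 where the mutant value is the lower one. It was called below 0 in 38 of the 73 members and above 0 in 0 (limma), 52.1% against 13.5% of all genes for the first and 4.13% for the second. In the fit of the brighter 50% of probe sets the shares were 25.6% and 8.71% of genes, beside 40 and 0 of 72 members. The interaction uses the arrays of all 4 groups, so it is not independent of the other comparisons. In 37 of the 38 the difference lay closer to 0 in mutants than in controls. The same 37 were called higher in untreated controls, where a lower mutant value readily lies closer to 0, so this is no separate result. The 1 exception was Mrps33, whose difference was 0.09 in controls and -0.72 in mutants. At an unadjusted p below 0.05 the counts were 52 and 0, against 18.6% and 8.91% of all genes. The large subunit gave 26 of 45 with a median of -0.71, the small subunit 12 of 28 with a median of -0.66, and the median of all genes was 0.00. In 69 of the 73 the estimate was below 0. Without treated mutant replicate 2 the count was 25 below and 1 above 0, and after quantile normalization 22 and 2, with medians of -0.39 and -0.36, while the share of calls above 0 over all genes went from 23.4% to 53.8%.

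**Figure D3:**
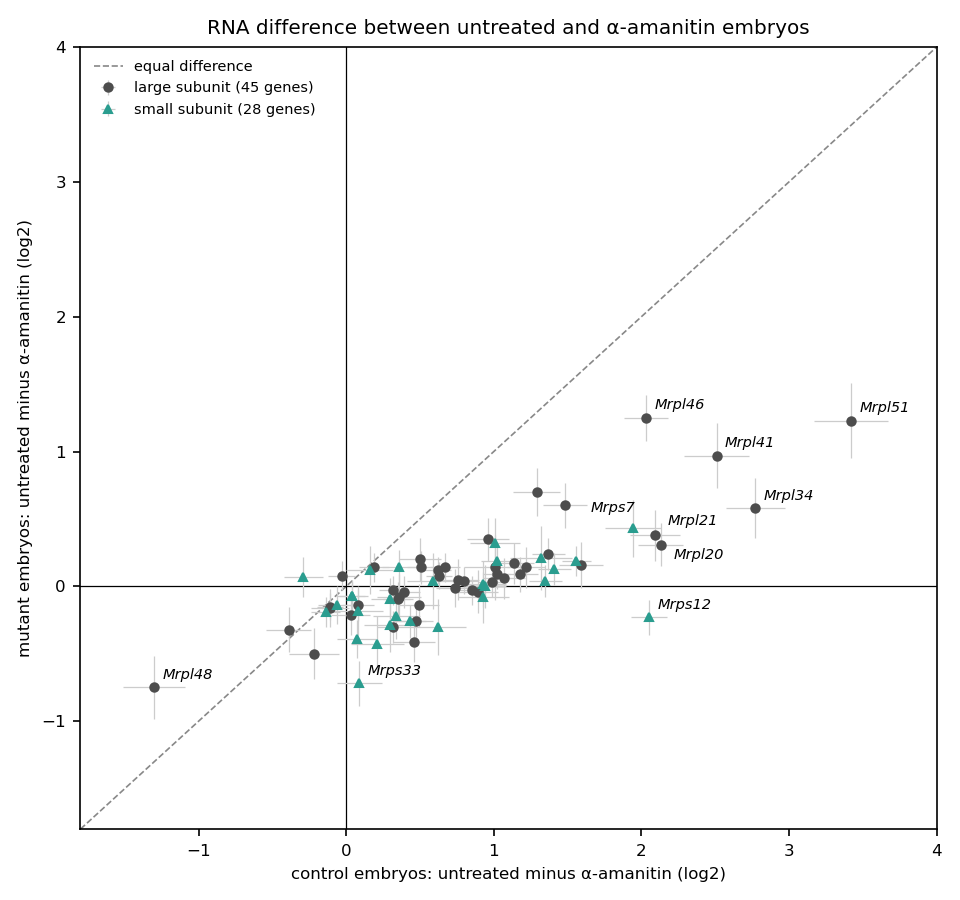
Untreated minus α-amanitin log2 difference in control embryos (horizontal) and mutant embryos (vertical) for each member, with limma's standard errors; circles are large and triangles small subunit genes, and the dashed line marks equal differences. Mrps12 lies at 2.05 and -0.23, Mrpl34 at 2.77 and 0.58, and Mrpl46 at 2.03 and 1.25, and 69 of the 73 genes lie below the line.

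Mrps12 had the largest interaction (-2.27 ± 0.18, adjusted p = 6.69e-05). It read 5.89, 5.91 and 5.59 in untreated mutants and 5.94 and 6.11 in treated mutants, so the untreated mutant pools lay 0.23 below the treated ones (± 0.13, adjusted p = 0.485), while in controls they lay 2.05 above. Mrpl34 (-2.19 ± 0.30), Mrpl20 (-1.82 ± 0.22), Mrpl21 (-1.72 ± 0.26), Mrpl41 (-1.55 ± 0.33) and Mrps7 (-1.51 ± 0.28) followed. Mrps28 (-1.37 ± 0.14), Mrps30 (-1.31 ± 0.16) and Mrps26 (-1.28 ± 0.16) had smaller estimates with smaller errors, and the calls of all these genes were kept in every alternative run. For Mrpl41 those runs left out the 2 probe sets shared with Wdr85, which gave -0.73 and -0.54. The second of these was not called (limma, adjusted p = 0.0738). Mrpl48, the member that ran the other way in controls, gave 0.55 ± 0.31 and did not pass (adjusted p = 0.344), but its other probe set did (0.86, limma, adjusted p = 0.0109).

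The last comparison set the genotypes side by side with α-amanitin in both. In these pools 15 members were higher in mutants and 0 lower (limma), or 20.5% and 0%, against 6.96% and 3.99% of all genes. In the fit of the brighter 50% of probe sets the shares were 14% and 8.36% of genes, beside 19 and 0 of 72 members. At an unadjusted p below 0.05 the counts were 26 higher and 0 lower, against 13.5% and 8.29% of all genes. These counts use the brightest probe set of each gene. The other probe set of Mrpl48 was called lower in treated mutants (-0.53, limma, adjusted p = 0.0413), while its brightest was not (-0.32). The large subunit gave 8 of 45 with a median of 0.14, the small subunit 7 of 28 with a median of 0.28, and the median of all genes was 0.02. After quantile normalization 14 members were higher, while the share of higher calls over all genes went from 63.5% to 49.9%. The medians of the large and small subunit then fell to 0.04 and 0.18. Without treated mutant replicate 2 they were 0.05 and 0.09. The count rests on few arrays: it was 5 without treated mutant replicate 2, 9 without treated control replicate 3 and 4 where only these 2 groups were fitted.

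**Figure D4:**
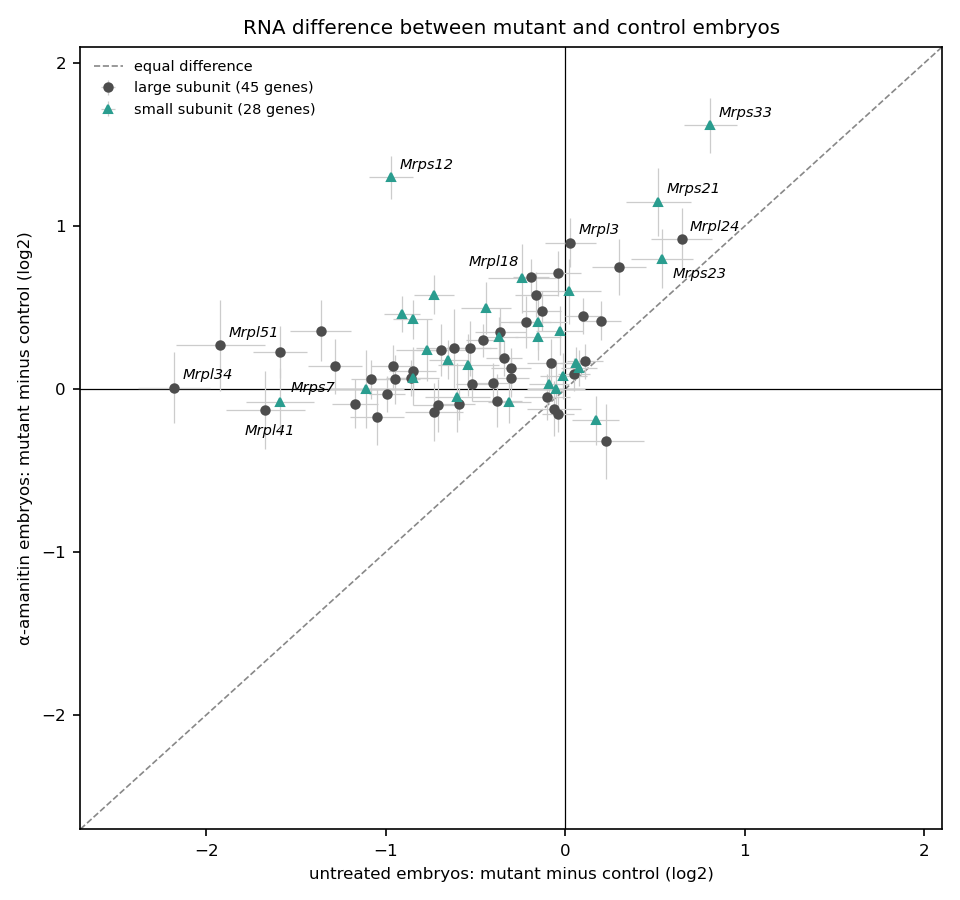
Mutant minus control log2 difference in untreated embryos (horizontal) and in α-amanitin embryos (vertical) for each member, with limma's standard errors; circles are large and triangles small subunit genes, and the dashed line marks equal differences. Mrpl34, Mrpl41 and Mrps7 lie far to the left near 0 on the vertical axis, Mrps12 lies at -0.97 and 1.30, and Mrps33, Mrpl24 and Mrps23 lie above 0 on both axes.

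The 5 members with the smallest adjusted p here (limma, all arrays) were Mrps33, Mrps12, Mrps21, Mrpl3 and Mrpl18. A fit without treated mutant replicate 2 leaves 1 array in that group, so it cannot part firm calls from weak ones. Mrps33 read 7.39, 7.68 and 7.32 in treated control pools against 8.99 and 9.17 in mutant ones, 3.08-fold higher (1.62 ± 0.17, adjusted p = 0.000239), and its other probe set was higher too (1.10). Mrps12 read 4.66, 4.88 and 4.62 against 5.94 and 6.11 (1.30 ± 0.13). Mrps21, a small protein with a bacterial counterpart, read 6.19, 6.24 and 5.58 against 7.03 and 7.28 (1.15 ± 0.21). None of the 3 overlapped between genotypes, which was a condition for naming called rises. Mrpl3 read 5.35, 5.29 and 4.94 against 5.96 and 6.21 (0.90 ± 0.15), and Mrpl18, which has a bacterial counterpart, 7.09, 6.91 and 6.89 against 7.48 and 7.83 (0.69 ± 0.11).

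Where only the 2 groups of treated embryos were fitted, Mrps33, Mrps12, Mrpl3 and Mrpl47 were called, while Mrps21 and Mrpl18 were not (adjusted p = 0.0556 and 0.0627).

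Mrpl24 (0.92 ± 0.19), Mrps23 (0.80 ± 0.18), Mrpl16 (0.75 ± 0.17), Mrpl47 (0.71 ± 0.14), Mrps30 (0.58 ± 0.12), Mrps28 (0.46 ± 0.11) and Mrps26 (0.43 ± 0.12) were also higher in treated mutants. Each of these calls was lost without treated mutant replicate 2, a fit with 1 array in that group. Mrps26 was lost in 9 of the 11 fits that left out 1 array, all but those without untreated mutant replicate 1 or 3. Mrps28 was also lost without treated control replicate 1 or 3 (adjusted p from 0.0657), Mrps23 without treated control replicate 1 or 2 (from 0.0525) and Mrpl16 without treated control replicate 3 (0.0664). The genes that fell most in untreated mutants did not differ detectably here: Mrpl34 gave 0.01 ± 0.22, Mrpl41 -0.13 ± 0.24, Mrpl20 0.23 ± 0.16 and Mrps7 -0.08 ± 0.21. The genotype comparisons with and without the inhibitor share no array. All 3 members higher in untreated mutants (100%) were higher with the inhibitor, which is 20% of the 15 called there: Mrpl24, Mrps23 and Mrps33.

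Some members were near the same level in all 4 groups. Mrps14, which has a bacterial counterpart, read 7.57, 7.40 and 7.27 in untreated control pools and 7.58, 7.30 and 7.34 in mutant ones, and with the inhibitor 7.70, 7.44 and 7.27 (control) and 7.51 and 7.58 (mutant). Its estimates in the 5 comparisons lay between -0.14 and 0.08, with standard errors from 0.13 to 0.19. Mrps35, found only in mitochondria, stayed between 4.42 and 4.83, close to the array medians of 4.45 to 4.55, where a probe set has little room to fall. Mrps10, whose bacterial counterpart also works in transcription antitermination, lay as low on its brighter probe set and gave no call. Its other probe set, listed with a curated RefSeq transcript, fell in untreated mutants (-0.53, limma, adjusted p = 0.0037) and was higher in untreated controls than with the inhibitor (0.50), so no direction is given for Mrps10.

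The 41 members not named by the rule followed the same split in part. In control embryos 27 of them were higher in untreated pools, against 19.3% of all genes, with differences from -0.39 to 1.59. In untreated mutants 16 were lower, against 16.5% of all genes, from -1.28 to 0.20. In treated mutants 3 were higher, a share near the 6.96% of all genes. All 3 were in the large subunit, and the differences ran from -0.19 to 0.60. The interaction was called below 0 in 16, against 13.5% of all genes, with estimates from -1.43 to 0.36. Of these, 14 were among 29 large and 2 among 12 small subunit members. The treatment differences in mutant embryos ran from -0.39 to 0.70. Of the other genes with several probe sets, Mrpl27 was higher in untreated controls on both (0.51 and 0.66), and Mrpl23 and Mrpl47 on the brighter of each pair (0.76 and 0.74) but not on the other (0.14 and 0.22).

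Of the 73 members 64 matched 70 RefSeq promoter windows, and 9 did not match. The ETS letters occurred in 32.9% of the 70 windows, against 8.86% of 32851 windows of all genes. The NRF1 letters occurred in 11.4% against 2.71%, and those of YY1 in 10% against 1.4%. The 61 windows of 51 cytosolic ribosomal protein genes gave 31.1%, 4.92% and 4.92% in the same order. Member windows were also richer in G and C, with a median of 58.2% against 52.7%, and short G and C rich words are more frequent in such sequence. The NRF1 letters of the 2 strands overlap, so 1 stretch can match on both, and the ETS letters can overlap those of YY1 at their ends, though they did so in no member window. The window of Mrpl34 held the ETS letters 37 bases before the start, that of Mrps33 on the other strand 38 bases after it, and that of Mrps18b held NRF1 letters at -223 and 28 and ETS letters at 43, each given by its first base and counted with the start base as 0.

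Counts of calls with and without the letters are given as a description, with no test. Of the 23 members with ETS letters 17 were higher in untreated than treated controls, with a median of 0.67, and of the 41 without them 26, with a median of 0.50. In untreated mutants 13 of the 23 were lower with a median of -0.46, and 17 of the 41 with a median of -0.36. Of the 8 with NRF1 letters 6 were higher in untreated controls (median 0.86) and 5 lower in mutants (median -0.54), while of the 56 without them 37 were higher (median 0.61) and 25 lower (median -0.33). Of the 7 with YY1 letters 5 were higher (median 0.50) and 2 lower (median -0.24), and of the 57 without them 38 (median 0.74) and 28 (median -0.37). A match is a run of letters and not a site shown to be bound.

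Mrps11 and Mrpl46 lie head to head on chromosome 7, with starts at 78783131 and 78783089, 41 bases apart, and their windows share 141 bases (chr7:78783040-78783180). Mrps11 was chosen for this arrangement after its values were seen. It read 6.06, 5.93 and 5.46 in untreated control pools and 5.37, 5.23 and 5.22 in mutant ones, and with the inhibitor 4.87, 4.89 and 4.64 (control) and 4.68 and 5.22 (mutant). Both genes were higher in untreated than treated controls (1.01 ± 0.17 for Mrps11, 2.03 ± 0.15 for Mrpl46) and both fell in untreated mutants (-0.54 ± 0.17 and -0.53 ± 0.15). In mutant embryos the treatment difference was 0.32 ± 0.19 for Mrps11 (adjusted p = 0.49) and 1.25 ± 0.17 for Mrpl46. The window of Mrps11 held the YY1 letters on the other strand at -108, outside the shared bases, and that of Mrpl46 held none of the 3 motifs.

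Of 10 regulators known to act on nuclear genes for mitochondrial proteins 8 were higher in untreated than in treated controls and 7 lower in untreated mutants, against 19.3% and 16.5% of all genes. Gabpa, the DNA-binding subunit of the ETS factor GABP, read 7.76, 7.41 and 7.58 in untreated control pools, 5.86, 4.97 and 5.52 in mutant ones without the inhibitor, and 3.90 to 4.14 in the treated pools of both genotypes. It fell in mutants by 2.14 on the log2 scale (± 0.19, limma, adjusted p = 2.56e-05), and it was also higher in untreated than treated mutants (1.43 ± 0.21). Yy1 (-1.54 ± 0.08), Pprc1, a coactivator of the same pathway (-1.65 ± 0.14), and Gabpb2 (-1.16 ± 0.13) fell as well, and Nrf1 by less (-0.52 ± 0.12). Ppargc1a, a coactivator best known from muscle and brown fat, did not pass (0.20 ± 0.11, adjusted p = 0.281), nor did Ppargc1b (0.04 ± 0.12) and Esrra (-0.18 ± 0.08).

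Other genes of mitochondrial translation gave mixed counts, to be read against the same 19.3% of all genes higher in untreated controls and 16.5% lower in untreated mutants. In the fit of the brighter 50% of probe sets these shares were 33.3% and 29.9%. Of 7 mitochondrial ribosomal proteins under other symbols, 5 were higher in untreated than treated controls and 4 fell in untreated mutants, among them Gadd45gip1 (-0.55 ± 0.11) and Aurkaip1 (-0.56 ± 0.13), while Dap3, which binds GTP in the small subunit, and Ptcd3 were higher in treated mutants (0.79 ± 0.21 and 0.47 ± 0.09). Of 16 measured assembly factors 8 were higher in untreated controls and 7 fell in mutants, led by the GTPase Noa1 (2.66 ± 0.12 and -1.79 ± 0.12) and the helicase Ddx28 (2.08 ± 0.18 and -1.50 ± 0.18), and 1 rose (6.25%, against 8.58% of all genes). Of 12 translation factors 5 were higher in untreated controls and 1 was lower (8.33%, against 14.1% of all genes). In untreated mutants 2 of them fell (16.7%, near the share of all genes). Tufm, the elongation factor that delivers tRNA, gave 1.60 ± 0.09 and -1.26 ± 0.09. Of 17 mitochondrial aminoacyl-tRNA synthetases 7 were higher in untreated controls and 7 fell in mutants, led by Yars2 (1.34 ± 0.11 and -1.01 ± 0.11) and Cars2 (1.53 ± 0.15 and -1.13 ± 0.15). Of 13 genes of mitochondrial transcription and DNA maintenance 8 were higher and 8 fell, among them Ssbp1, which coats single-stranded mitochondrial DNA (2.60 ± 0.17 and -1.47 ± 0.17), and Polrmt, the mitochondrial RNA polymerase that Mrpl12 binds (1.17 ± 0.13 and -1.13 ± 0.13).

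Genes of the cytosolic ribosome and of complex I, which holds the most subunits encoded in mitochondrial DNA, give the setting for the members. Of 69 cytosolic ribosomal protein genes 66 were higher in untreated controls with a median of 2.90, beside a member median of 0.62. In untreated mutants 58 fell with a median of -1.40, beside a member median of -0.37. Over all genes 19.3% were higher in untreated controls, and 16.5% fell and 8.58% rose in untreated mutants. In mutant embryos 29 of the 69 were higher in untreated than treated pools (42%), with a median of 0.68. That stands against 2 of the 73 members and 2.59% of all genes. Of 35 nuclear complex I genes 24 were higher in untreated controls (median 0.75), and 17 fell and 8 rose in untreated mutants (median -0.30). In treated mutants 14 were higher (40%, median 0.46), beside 20.5% of the members and 6.96% of all genes. No difference between these lists was tested.

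**Figure D5:**
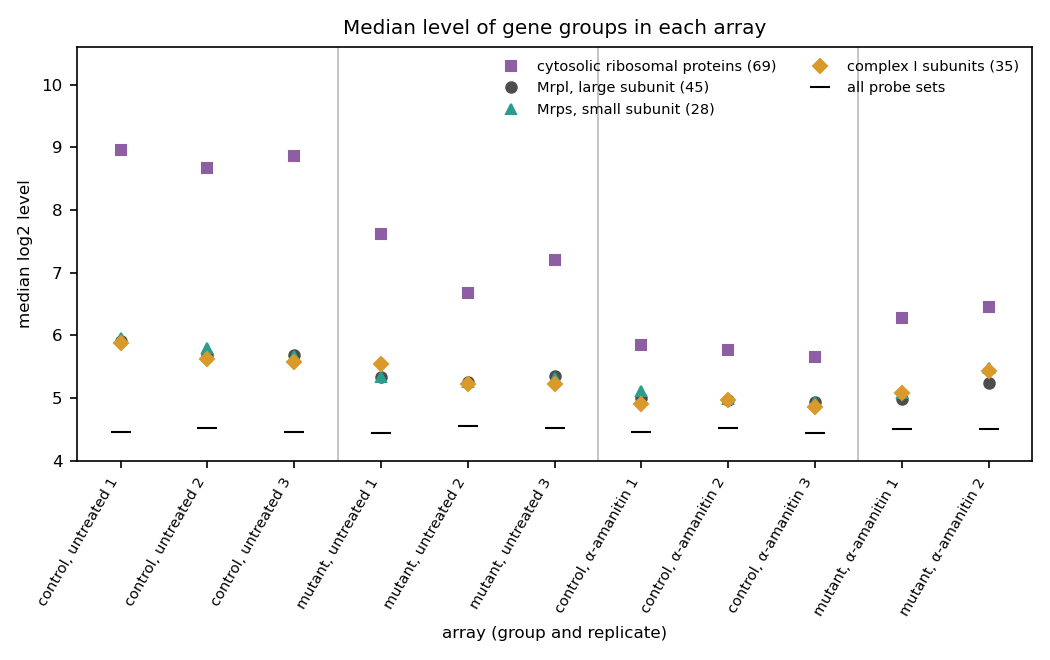
Median log2 level of the large and small subunit members, 69 cytosolic ribosomal protein genes, 35 complex I genes and all probe sets in each array, with the groups parted by lines. Member medians over both subunits run from 5.69 to 5.91 (untreated control), 5.26 to 5.33 (untreated mutant) and 4.94 to 5.04 (treated control) and are 5.01 and 5.32 in the treated mutant pools, while the medians of all probe sets stay between 4.45 and 4.55.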

How the data were processed

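RNA of 11 pools of 2-cell embryos was measured on Affymetrix whole-transcript arrays. The authors deposited log2 values, which run from 1.11 to 12.85, made with R 2.10.0 and the affy package, per the submitters' processing notes. No source used here states the background correction, the normalization or the genome build. Of 34760 probe sets 22856 had 1 symbol, 1756 several and 10148 none, from the platform annotation.

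A linear model with a mean for each of the 4 groups was fitted to every probe set (limma 3.58.1, R 4.3.3, eBayes, 2-sided, Benjamini-Hochberg over all probe sets), with 7 residual and 3.59 prior degrees of freedom. The fit was tested on simulated data. The lists share their fit, and no p was adjusted over a list. Named members were, in each comparison and subunit, up to 5 called rises and 5 falls without overlap, the 3 brightest and 3 dimmest, Mrps18a, Mrps18b, Mrps18c, Mrpl12, Mrps12 and members called against their subunit's majority. Members and lists were chosen with earlier results of these data known. Alternatives were quantile normalization, median centring, the brighter probe sets (50%), fewer groups, a trended prior, a replicate block, other probe sets and leaving out each array.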

Additional observations from a re-analysis of the deposited data

Results flagged for a closer look

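The difference between untreated and α-amanitin embryos was tested between genotypes through the interaction, and 38 members had a lower signed difference in mutant than in control embryos (limma, adjusted p below 0.05), which lay closer to 0 in mutants in 37 of them, all but Mrps33. In the large subunit these included Mrpl34 (-2.19), Mrpl51 (-2.19 on its brighter probe set, -0.01 on the other), Mrpl20 (-1.82), Mrpl21 (-1.72), Mrpl41 (-1.55, but -0.73 and -0.54 on the probe sets shared with Wdr85), Mrpl12 (-0.88), Mrpl18 (-0.88), Mrpl3 (-0.87), Mrpl46 (-0.78), Mrpl33 (-0.76), Mrpl47 (-0.75) and Mrpl15 (-0.55). In the small subunit they included Mrps12 (-2.27), Mrps7 (-1.51), Mrps28 (-1.37), Mrps30 (-1.31), Mrps26 (-1.28), Mrps18c (-1.11), Mrps18b (-1.01), Mrps24 (-0.92), Mrps15 (-0.83) and Mrps33 (-0.81, and -0.43 with adjusted p = 0.185 on its other probe set). Leaving out treated mutant replicate 2 ended the calls of Mrpl12, Mrpl3, Mrpl46, Mrpl47, Mrps18c, Mrps24 and Mrps33 and lowered the count to 25. Over all arrays left out in turn, the adjusted p of the lost calls ran from 0.0508 to 0.167 for Mrpl46, lost in 9 of 11 fits, from 0.0567 to 0.117 for Mrps33, lost in 7, and from 0.0555 to 0.0847 for Mrpl12, 0.0651 to 0.164 for Mrps18c and 0.0512 to 0.104 for Mrpl47, each lost in 6.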

How the results depend on the processing

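The members' calls were recomputed under 19 alternatives, of which the curated RefSeq probe set was chosen after seeing the data. Of 83 calls of named members 50 were kept in every alternative run, 33 were lost in some and 0 changed sign, with 0 to 15 lost per alternative. Quantile normalization gave 10 higher (29 lower) in untreated mutants, 40 higher and 10 lower for treatment in control embryos, 4 higher and 2 lower for treatment in mutant embryos, and 22 below and 2 above 0 for the interaction. The cause was not tested. Treatment in mutant embryos, with 2 higher and 1 lower members, gave 1 higher after median centring, with the mean of a gene's probe sets and with the curated RefSeq probe set, 5 higher with the brighter probe sets only, 0 lower with the trended prior, and 0 higher and 0 lower where only the groups compared were fitted. That last fit, which uses fewer arrays, gave 4 higher for genotype with α-amanitin. The brighter probe sets gave 2 lower for treatment in control embryos. Leaving out each array in turn gave 1 to 4 higher and 29 to 37 lower in untreated mutants, 5 to 18 higher and 0 lower in treated mutants, 40 to 50 higher and 1 lower for treatment in control embryos, 1 to 3 higher and 0 to 3 lower for treatment in mutant embryos, and 25 to 43 below and 0 to 1 above 0 for the interaction. Arrays with the same replicate number showed only weak shared deviation: over 15 pairs the correlation of their deviations lay between -0.22 and 0.15, and 3 exceeded 0.1. It was above 0 in every pair among the groups of 3 arrays (0.03 to 0.15). In every pair with a treated mutant array it was below 0 (-0.22 to -0.02). With the replicate block the counts were 2 higher and 35 lower in untreated mutants, 12 higher in treated mutants, 48 higher and 1 lower for treatment in controls, 2 higher and 0 lower for treatment in mutants, and 33 below 0 for the interaction. Probe sets near the array median have little room to fall, and with 2 or 3 arrays per group small differences in dim members may be missed.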
